A study of Mus musculus with 12 samples.

Results

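The GIMAP genes encode a family of small GTPases of immune cells, and here they were followed in mouse CD4 T cells at rest and after activation. The members were the probe sets whose gene symbol in the platform annotation is Gimap1, Gimap3, Gimap4, Gimap5, Gimap6, Gimap7, Gimap8 or Gimap9. Each of the 8 genes had 1 probe set, so the family is 8 of the 28853 probe sets on the array and 8 of the 23410 that carry a gene symbol and were tested. All 8 were tested in every comparison. The members were chosen by name, with earlier results of these data known.

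The mice were C57BL/6 and either carried a transgene for PP2Ac (Tg) or were wild type (WT), and RNA was taken from their naive CD4 T cells. PP2Ac is the subunit of protein phosphatase 2A that holds its enzyme activity. Cells were unstimulated (0 h) or were stimulated for 6 h or 24 h through CD3 at 0.25 ug/mL and CD28 at 0.5 ug/mL, with soluble antibodies in plates that carried goat antibody against hamster. Each of the 6 groups had 2 arrays, 1 whose title carries the mark Rep and 1 without it, which makes 12 arrays. The labels name no promoter for the transgene. They are silent on whether both arrays of a group stem from separate mice or cultures, so p-values measure only the spread between these samples. The design has no culture without stimulation at 6 h or 24 h, so stimulation and time in culture cannot be told apart.

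GIMAP proteins share a GTP-binding domain related to that of plant AIG1 proteins and of septins, and several of them sit on membranes of lymphocytes. They are known above all for the survival and homeostasis of lymphocytes: mice and rats without GIMAP5 lose peripheral T cells, and mice without GIMAP1 in their lymphocytes lose mature T and B cells. In the mouse the genes lie side by side on chromosome 6.

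The labels were first checked against marker genes. Ppp2ca, the gene of PP2Ac, averaged 13.89, 13.75 and 13.81 in Tg cells at 0, 6 and 24 h, against 13.15, 13.36 and 13.21 in WT cells, and no Tg array overlapped a WT array of the same time. Its difference at 0 h was 0.74 ± 0.08 (SE, limma adjusted p = 0.0551). It was 0.38 ± 0.08 at 6 h and 0.60 ± 0.08 at 24 h (adjusted p = 0.282 at 24 h), and it passed the threshold of 0.05 at no single time. Averaged over the 3 times it was 0.57 ± 0.05 (adjusted p = 0.00438). All values here are log2 values after quantile normalisation, and a log2 difference is the logarithm of a fold change. Cd3e, a subunit of the T cell receptor complex, stayed between 13.57 and 13.95 on all arrays. Il2ra, the induced chain of the IL-2 receptor, rose by 2.89 and 2.85 in Tg cells and by 3.06 and 3.08 in WT cells at 6 and 24 h against 0 h (adjusted p from 0.000167 to 0.000522). Replicate arrays correlated with r of 0.992 to 0.9965 over probe sets. The WT arrays marked Rep stood apart in their low neutrophil markers: the summed level of the list was 14.90 to 15.68 in Tg cells and 12.45 to 15.71 in WT cells at 0 h. Where calls of members ended without these arrays, that is given beside the call or as a count after the members of that time.

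Upstream sequences of 3 members are shown because their genes had the 3 different time courses described below: Gimap3 fell most at 6 h, Gimap7 rose at 24 h, and Gimap5 passed the test at no time. Each is the 250 bases before the RefSeq start of the gene on chromosome 6 of GRCm38.p6, read 5′ to 3′ on the strand of the gene, with motif matches in capitals. The Gimap3 window is chr6:48770852-48771101 on the minus strand, the Gimap7 window chr6:48718371-48718620 on the plus strand and the Gimap5 window chr6:48745947-48746196 on the plus strand.
Gimap3: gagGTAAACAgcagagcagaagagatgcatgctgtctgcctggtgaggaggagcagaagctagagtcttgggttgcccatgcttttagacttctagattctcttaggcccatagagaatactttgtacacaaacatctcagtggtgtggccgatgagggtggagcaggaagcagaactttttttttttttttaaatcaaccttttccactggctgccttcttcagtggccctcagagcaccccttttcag
Gimap7: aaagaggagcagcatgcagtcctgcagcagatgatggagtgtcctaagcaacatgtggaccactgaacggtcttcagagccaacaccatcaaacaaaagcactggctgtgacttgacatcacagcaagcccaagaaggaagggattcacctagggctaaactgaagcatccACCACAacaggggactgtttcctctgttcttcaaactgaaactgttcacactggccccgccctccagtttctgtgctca
Gimap5: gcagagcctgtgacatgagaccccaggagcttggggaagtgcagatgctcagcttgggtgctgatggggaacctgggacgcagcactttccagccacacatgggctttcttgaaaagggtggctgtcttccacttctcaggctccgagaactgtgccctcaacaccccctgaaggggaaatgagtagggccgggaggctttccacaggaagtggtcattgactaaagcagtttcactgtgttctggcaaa

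Short motifs were searched on both strands of all windows, and none of them overlaps another in these windows. All 8 members matched the RefSeq table, with 9 windows, since Gimap8 has 2 starts whose windows overlap. The forkhead letters TGTTTAC match in the Gimap3 window on the reverse strand, 247 to 241 bases before the start, and these are its capitals. Of the 9 windows it alone held them, against 3.2% of all 32851 windows. The RUNX letters TGTGGT match in the Gimap7 window on the reverse strand, 79 to 74 bases before the start. They stood in 3 of the 9 windows, those of Gimap4, Gimap7 and Gimap1, against 14.0% of all windows. The ETS letters CGGAAG stood in 3 of the 9, those of Gimap6 (at 2 positions), Gimap1 and the downstream start of Gimap8, against 13.6% of all windows. The Gimap5 and Gimap9 windows and that of the upstream start of Gimap8 held none of the 7 motifs. The letters searched for KLF factors were GGGCGTG, which no member window held, against 7.5% of all windows. Those for TCF and LEF factors were ATCAAAG, also in no member window and in 3.2% of all. For the core site of NF-kB the letters GGGACTT were used, in no member window and in 4.6% of all. For factors of the GATA family, AGATAA was in no member window and in 10.0% of all. The GC content of the member windows ran from 43.6% in Gimap6 to 61.2% in Gimap9, and the median of all windows was 52.4%. A match here is a description of letters.

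Within 6 h of stimulation 7 of the 8 GIMAP genes fell in both genotypes, and Gimap5 did not pass the test. The largest decline was that of Gimap3. The fall in Tg cells ranged from 0.43 to 0.75 on the log2 scale among the 7 and in WT cells from 0.44 to 0.77. Among all probe sets tested, 25.4% were called in Tg cells (12.5% higher and 12.9% lower) and 26.5% in WT cells (12.6% higher and 13.9% lower). The median difference of the 8 members was -0.62 in Tg cells and -0.61 in WT cells, against 0.0003 and -0.01 over all probe sets tested. Within the unmarked arrays the members' medians were -0.56 in Tg cells and -0.61 in WT cells, and within the arrays marked Rep -0.63 and -0.56. Without the unmarked Tg array at 6 h, or without the Tg 0 h array marked Rep, 4 members passed in Tg cells, with Gimap6, Gimap7 and Gimap9 no longer past the threshold. When the test asked for a change beyond 1.5-fold, 0 of 8 members passed at 6 h in either genotype. In bulk RNA fewer cells of a type and less RNA per cell cannot be told apart, and since values are relative to the other RNA on the array, the total RNA per cell is not measured.

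Gimap3 encodes a GTPase that is functional in mouse and is reported to act together with GIMAP5, while its human counterpart is a pseudogene. It read 12.66 and 12.69 in Tg cells at 6 h, against 13.39 and 13.46 in Tg cells at 0 h. In WT cells it read 12.53 and 12.76 at 6 h, against 13.32 and 13.52 at 0 h. The 6 h arrays were below the 0 h arrays without overlap in both genotypes. The difference was -0.75 ± 0.10 in Tg cells (SE, n = 2 each, limma adjusted p = 0.000538) and -0.77 ± 0.10 in WT cells (adjusted p = 0.000446). Gimap3 and Gimap5 are close paralogs, and how far their probes can bind each other's RNA was not tested.

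Gimap1 is needed for mature T and B cells in mice. It read 11.17 and 11.11 in Tg cells at 6 h, against 11.76 and 11.74 at 0 h, and 11.06 and 11.23 in WT cells at 6 h, against 11.83 and 11.90 at 0 h. Its replicates lay closest together of the family, with a standard error of 0.09. The difference was -0.61 in Tg cells (adjusted p = 0.000789) and -0.72 in WT cells (adjusted p = 0.000309).

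Gimap8 encodes a large member with several GTP-binding domains in 1 chain. It read 10.84 and 10.98 in Tg cells at 6 h, against 11.47 and 11.72 at 0 h, and 10.91 and 11.12 in WT cells at 6 h, against 11.60 and 11.62 at 0 h. All 4 arrays at 6 h were lower than all 4 arrays at 0 h. The difference was -0.68 ± 0.11 in Tg cells (adjusted p = 0.0018) and -0.59 ± 0.11 in WT cells (adjusted p = 0.0037).

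Gimap4 is a member linked to T cell apoptosis. It read 12.77 and 12.83 in Tg cells at 6 h, against 13.42 and 13.46 at 0 h, and 12.76 and 12.94 in WT cells at 6 h, against 13.40 and 13.57 at 0 h. The groups were again apart, with a difference of -0.64 ± 0.10 in Tg cells and -0.63 ± 0.10 in WT cells (adjusted p = 0.00103 for both). Gimap6, whose human protein binds the autophagy modifier GABARAPL2, read 12.83 and 13.01 in Tg cells at 6 h, against 13.33 and 13.45 at 0 h. In WT cells Gimap6 read 12.77 and 13.00 at 6 h, against 13.36 and 13.47 at 0 h. Its fall was smaller, at -0.47 ± 0.10 in Tg cells (adjusted p = 0.00886) and -0.53 ± 0.10 in WT cells (adjusted p = 0.0048).

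Gimap9 had the widest spread between replicates. It read 11.24 and 11.26 in Tg cells at 6 h, against 11.77 and 12.01 at 0 h, and 11.17 and 11.37 in WT cells at 6 h, against 11.76 and 12.18 at 0 h. The difference was -0.64 ± 0.15 in Tg cells (adjusted p = 0.0114) and -0.70 ± 0.15 in WT cells (adjusted p = 0.00726). On leaving out the 3 arrays of WT cells with the mark Rep, the WT difference of Gimap9 was -0.59 and no longer past the threshold (adjusted p = 0.0547).

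Gimap7, whose human protein stimulates the GTPase activity of another family member, had the smallest of the 7 declines. It read 9.72 and 9.67 in Tg cells at 6 h, against 10.10 and 10.16 at 0 h, and 9.79 and 9.84 in WT cells at 6 h, against 10.26 and 10.24 at 0 h. The difference was -0.43 ± 0.12 in Tg cells (adjusted p = 0.0224) and -0.44 ± 0.12 in WT cells (adjusted p = 0.0214). Both calls ended under median centring of the arrays (adjusted p = 0.0667 in Tg and 0.0531 in WT cells). They ended without any 1 of the 4 arrays compared in each genotype (adjusted p up to 0.115 in Tg and 0.1 in WT cells). They also ended when the 3 WT arrays with the mark Rep were left out (adjusted p = 0.0627 and 0.166).

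Gimap5, the member on lysosomal membranes whose loss causes lymphopenia in mice and in the BB rat, stayed within a narrow range. It read 10.35 and 10.52 in Tg cells at 6 h, against 10.56 and 10.64 at 0 h, and 10.33 and 10.45 in WT cells at 6 h, against 10.34 and 10.56 at 0 h. The WT groups overlapped, and the Tg groups were apart by less than their own spread. The difference was -0.17 ± 0.10 in Tg cells (adjusted p = 0.3) and -0.06 ± 0.10 in WT cells (adjusted p = 0.722).

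**Figure D1:**
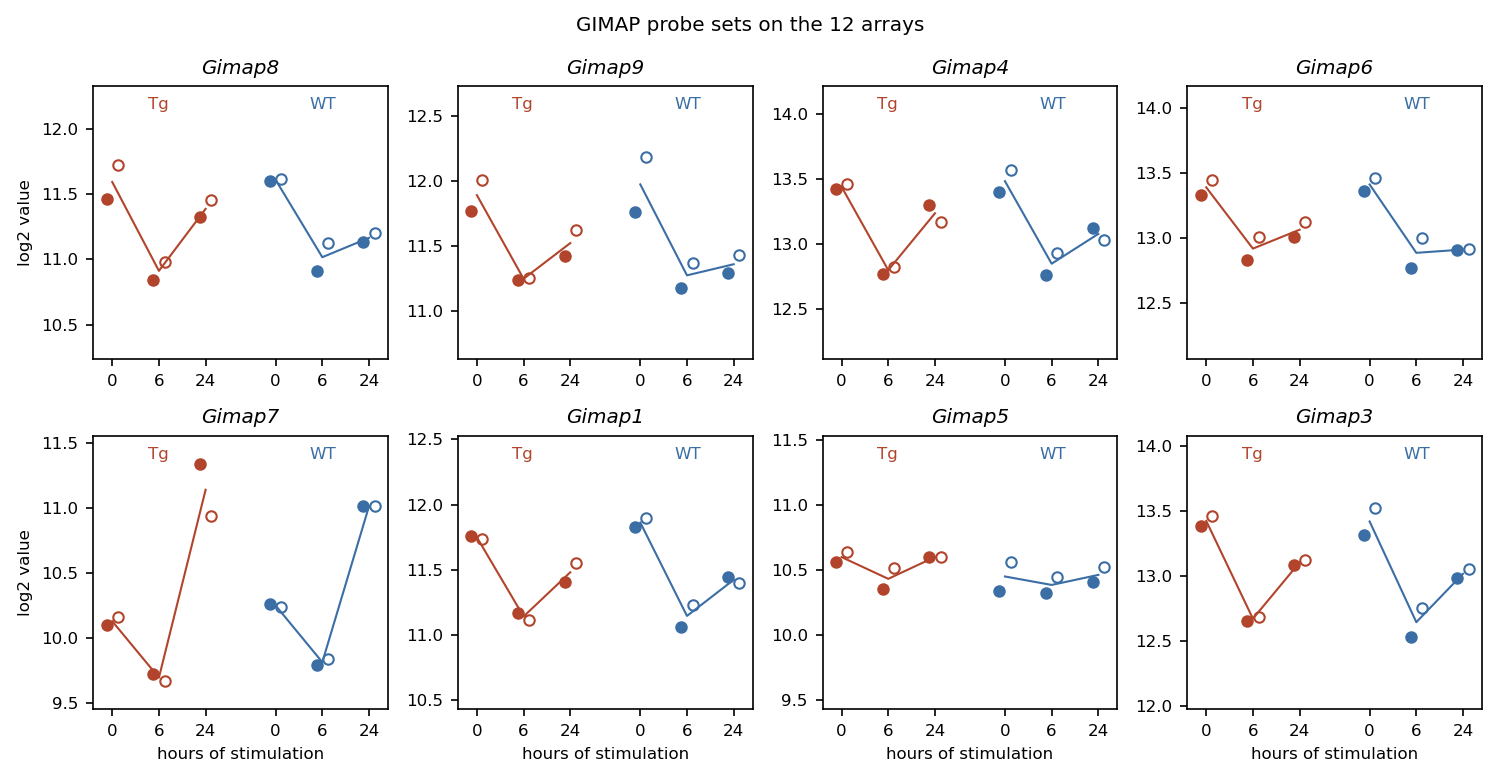
Log2 values of the 8 GIMAP probe sets on the 12 arrays, with hours of stimulation on the x axis, Tg cells left of WT cells, filled points for unmarked arrays, open points for arrays marked Rep, and lines through the group means. Every panel spans the same height on the log2 axis. After a dip at 6 h, 6 genes have 24 h means between their 6 h and 0 h means. For Gimap6 in WT cells the mean is 12.89 at 6 h and 12.91 at 24 h. Gimap7 climbs above its 0 h level at 24 h, and Gimap5 stays between 10.33 and 10.64.

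At 24 h the family had split. Gimap7 was higher than at 0 h in both genotypes, by 2.01-fold in Tg cells and 1.70-fold in WT cells. The other 6 members that had fallen averaged between their 0 h and 6 h levels. In Tg cells 1 member was higher, 1 was lower and 6 did not pass the test, where 23.8% of all probe sets tested were called (12% higher and 11.8% lower). In WT cells 1 member was higher, 6 were lower and 1 did not pass, where 26.7% of all probe sets were called (12.9% higher and 13.8% lower). The 24 h and the 6 h comparisons share their 0 h arrays.

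Gimap7 read 11.34 and 10.94 in Tg cells at 24 h, against 10.10 and 10.16 at 0 h. In WT cells it read 11.02 and 11.01 at 24 h, against 10.26 and 10.24 at 0 h. All 4 arrays at 24 h were above all 8 earlier arrays. The difference from 0 h was 1.01 ± 0.12 in Tg cells (SE, n = 2 each, limma adjusted p = 0.00052) and 0.76 ± 0.12 in WT cells (adjusted p = 0.00138). When the 3 WT arrays with the mark were left out, the WT difference was 0.75 (adjusted p = 0.0525). Tested against a minimum of 1.5-fold, both calls against 0 h ended (adjusted p = 0.0895 in Tg and 0.852 in WT cells). From 6 h to 24 h Gimap7 rose by 1.44 ± 0.12 in Tg cells, which is 2.72-fold (adjusted p = 0.000322). In WT cells it rose by 1.20 ± 0.12 over the same interval, which is 2.29-fold (adjusted p = 0.000617). These last 2 calls were kept under every alternative that was run, including a minimum of 1.5-fold.

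Gimap3 read 13.09 and 13.12 in Tg cells at 24 h and 12.98 and 13.05 in WT cells, so in both genotypes it lay between the 6 h and the 0 h arrays. Against 0 h it was lower, with a difference of -0.32 ± 0.10 in Tg cells (adjusted p = 0.0471) and of -0.40 ± 0.10 in WT cells (adjusted p = 0.0158). Beside Gimap7 it was also the only member whose rise from 6 h to 24 h passed the test in both genotypes. Its rise was 0.43 ± 0.10 in Tg cells (adjusted p = 0.0206) and 0.37 ± 0.10 in WT cells (adjusted p = 0.0399).

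Gimap1 read 11.41 and 11.55 in Tg cells at 24 h and 11.44 and 11.40 in WT cells. Gimap6 read 13.01 and 13.12 in Tg cells and 12.91 and 12.92 in WT cells. Both stayed below their 0 h arrays without overlap. In WT cells the differences from 0 h were -0.44 for Gimap1 (adjusted p = 0.00502) and -0.50 for Gimap6 (adjusted p = 0.00676). In Tg cells the difference of Gimap1 was -0.27 (adjusted p = 0.0523) and that of Gimap6 -0.33 (adjusted p = 0.0513), neither past the threshold.

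Gimap8 read 11.32 and 11.45 in Tg cells at 24 h and 11.13 and 11.20 in WT cells. Gimap4 read 13.30 and 13.17 in Tg cells and 13.13 and 13.03 in WT cells. Gimap9 read 11.42 and 11.62 in Tg cells and 11.29 and 11.43 in WT cells. All 3 were lower than at 0 h in WT cells, with differences of -0.45 for Gimap8 (adjusted p = 0.0169), -0.41 for Gimap4 (adjusted p = 0.0122) and -0.61 for Gimap9 (adjusted p = 0.0145). In Tg cells their differences were -0.21, -0.20 and -0.37 (adjusted p = 0.247, 0.172 and 0.117). Gimap5 read 10.60 and 10.60 in Tg cells at 24 h and 10.41 and 10.52 in WT cells, a difference from 0 h of 0.01 in WT cells (adjusted p = 0.951) and close to 0 in Tg cells (adjusted p = 0.998).

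The mark Rep paired samples across groups, and with the mark as a block the Tg count at 24 h against 0 h was 5 members in place of 2. Gimap1, Gimap6 and Gimap9 were then lower as well (adjusted p = 0.0452, 0.0132 and 0.0212). When the 3 WT arrays with the mark were left out, the WT count at 24 h was 0 in place of 7. It was 2 without the WT 0 h array marked Rep and 4 without the unmarked WT array at 24 h. In Tg cells Gimap3 lost its call without any 1 Tg array and without either WT array at 24 h.

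Between 6 h and 24 h all 8 members had positive differences in both genotypes. In Tg cells 5 passed the test, Gimap8, Gimap4, Gimap7, Gimap1 and Gimap3, where 14.3% of all probe sets were called (7.89% higher and 6.42% lower). In WT cells 2 passed, Gimap7 and Gimap3, where 13.3% were called (7.49% higher and 5.86% lower). The members' median was 0.39 in Tg cells and 0.19 in WT cells, against -0.02 and -0.03 over all probe sets. Without either array of Tg cells at 6 h, or without the unmarked Tg array at 24 h, 1 member passed in Tg cells, and without the Tg array at 24 h marked Rep 2 did. In WT cells Gimap3 kept this call in 3 of the 12 fits that left out 1 array. Leaving out the 3 WT arrays marked Rep ended the calls of Gimap1 in Tg cells (adjusted p = 0.0579) and of Gimap3 in WT cells (adjusted p = 0.0837).

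**Figure D2:**
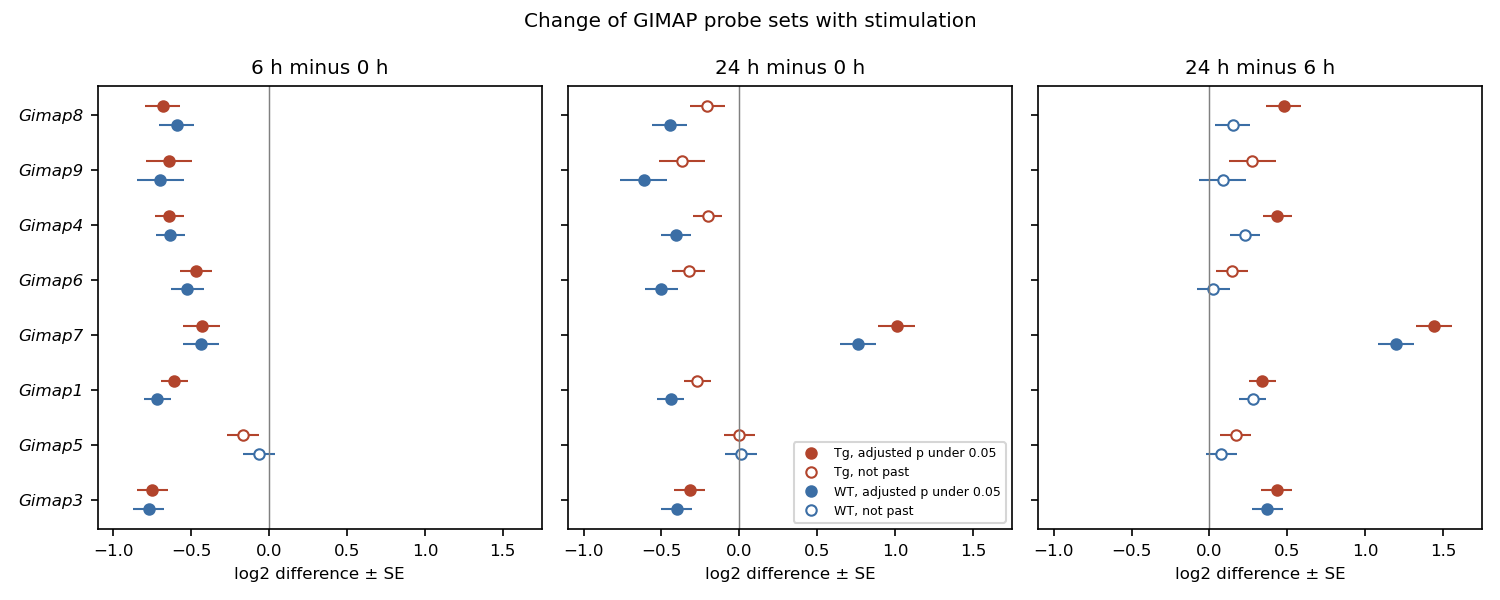
Log2 differences with their standard errors for the 8 members in the 3 comparisons of time, with Tg above WT for each gene and filled points past an adjusted p of 0.05. At 6 h against 0 h every point but those of Gimap5 is filled and left of 0, and at 24 h against 0 h only Gimap7 stands right of 0 by more than its error.

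The level of Tg and WT cells did not differ past the test for any GIMAP gene at any time. At 0 h, 6 h and 24 h, 0 of 8 members passed with limma, and 0 of 8 had an unadjusted p under 0.05. Over all probe sets 0.00854% were called at each time, and 834, 610 and 997 of 23410 had an unadjusted p under 0.05 at 0, 6 and 24 h, which is 3.56%, 2.61% and 4.26%. The differences ran from -0.12 to 0.15 at 0 h and from -0.12 to 0.05 at 6 h. Their 95% confidence intervals lay between -0.42 and 0.38 at 0 h and between -0.38 and 0.31 at 6 h.

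At 24 h all 8 differences were positive, from 0.06 for Gimap1 to 0.22 for Gimap8, with intervals between -0.18 and 0.50 (adjusted p = 1 for all). The Tg arrays lay above the WT arrays without overlap for Gimap8, Gimap4, Gimap6, Gimap5 and Gimap3, which is 5 of 8. Of all probe sets, 14.5% were apart in the same direction, and 0.00854% were called in either direction. Within the unmarked arrays 7 of 8 were positive, with Gimap1 at -0.04, and within the arrays marked Rep 7 of 8 were, with Gimap7 at -0.07. Gimap8 was 0.22 ± 0.11 in all arrays, with 0.19 between the unmarked arrays and 0.25 between those marked Rep. The median of the members was 0.15 on this scale, against -0.01 over all probe sets tested. Markers of other blood cells averaged on the same side at 24 h, and their part in the differences was not tested. All 7 measured B cell markers, all 7 NK cell markers, all 7 monocyte markers and all 9 neutrophil markers were positive, with medians of 0.37, 0.70, 0.75 and 0.78 and no marker past the test. So were 2 of 2 CD8 markers, with a median of 0.53. At 0 h and at 6 h all NK cell, monocyte and neutrophil markers were positive too. Of 7 B cell markers 6 were at 0 h and 5 at 6 h. Of 8 GIMAP genes 2 were positive at 0 h and 3 at 6 h. The monocyte and neutrophil medians at 24 h rest on the WT array marked Rep. The summed level of the neutrophil list was 14.04 in Tg and 14.87 in WT cells on the unmarked arrays, and 13.62 in Tg and 11.10 in WT cells on those marked Rep. Between the unmarked arrays, 1 of each genotype, 0 of 9 neutrophil and 2 of 7 monocyte markers were positive, with medians of -0.83 and -0.14. All 7 B cell and all 7 NK cell markers were positive there, with medians of 0.16 and 0.88. Between the arrays marked Rep all 9 neutrophil, all 7 monocyte, all 7 B cell and 4 of 7 NK cell markers were positive. Their medians were 2.39, 1.88, 0.495 and 0.44. Lists described below were counted in all arrays at 24 h as well. Positive were 8 of 8 GBP and IRG GTPases, 8 of 9 CD4 T cell identity genes and 16 of 22 resting programme genes. Their medians were 0.50, 0.04 and 0.07. Between the unmarked arrays 7 of the 22 resting programme genes were positive, with a median of -0.08. Between those marked Rep 21 of the 22 were, with a median of 0.13. Of 12 T cell receptor activation genes 2 were positive in all arrays, with a median of -0.07. The part of these lists was not tested either.

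Averaged over the 3 times, 0 of 8 members passed, where 0.0256% of all probe sets did (0.0214% higher and 0.00427% lower). An unadjusted p under 0.05 was found for 0 of 8 members and for 1484 of 23410 probe sets. The average differences ran from -0.04 to 0.11, with intervals between -0.19 and 0.24. Gimap5 had the largest, at 0.11 ± 0.06 (limma adjusted p = 0.802), with 0.15 between the unmarked arrays and 0.08 between those marked Rep. Arrays of 1 genotype with the same mark may share a mouse or culture, and they would then not be independent samples of this average.

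The response to stimulation was also compared between the genotypes. For the change from 0 h to 6 h the difference between Tg and WT responses ran from -0.10 to 0.11 over the members, with intervals between -0.45 and 0.54. For the change from 0 h to 24 h it ran from -0.01 to 0.25, with intervals between -0.34 and 0.72. No member passed either test, and none of the probe sets tested did (0%). An unadjusted p under 0.05 was found for 0 of 8 members in either. Of the 23410 probe sets tested, 420 had such a p for the 6 h and 625 for the 24 h response. The unequal counts at 24 h, 2 members in Tg and 7 in WT cells, are therefore not shown to be different responses. Gimap7 had a difference of 0.25 ± 0.16 in its 24 h response, with 0.49 from the unmarked arrays and 0.01 from those marked Rep.

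**Figure D3:**
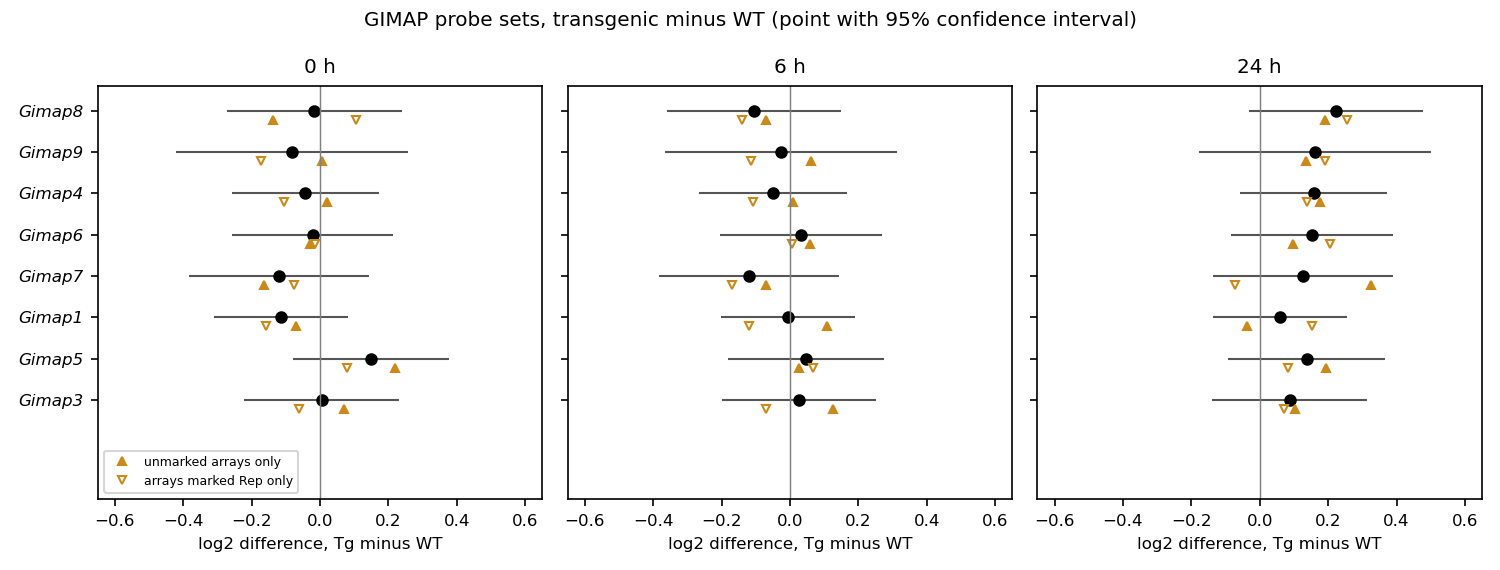
Log2 difference of Tg minus WT for each member at 0, 6 and 24 h, with black points for all arrays, grey lines for 95% confidence intervals and triangles for the unmarked and the Rep arrays alone. All intervals include 0, and at 24 h all 8 points are right of 0, the farthest being Gimap8 at 0.22.

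The members were alike in their course over the 12 arrays with 2 exceptions. These correlations describe arrays that share groups and labels and carry no test. Each member was set against the mean of the other 7 after standardising, and r was 0.98 for Gimap3, 0.96 for Gimap8 and Gimap4, 0.92 for Gimap1, 0.89 for Gimap9 and 0.86 for Gimap6. It was 0.59 for Gimap5 and 0.26 for Gimap7. Among the 15 pairs of the first 6 genes r ran from 0.89 to 0.98. Gimap7 correlated with each of the other 7 members at -0.03 to 0.39.

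Among 18700 other genes, the 10 whose probe sets followed the family mean most closely had r from 0.97 to 0.99. Cyld, a deubiquitinase that restrains NF-kB signalling, led with 0.99, followed by Dnah8, Abcb9, Trappc11, Aak1, Helz, Tbc1d14, Sdccag8, Gpr137b-ps and Dock2. Cyld fell at 6 h with a difference of -0.69 ± 0.10 in Tg cells and of -0.59 ± 0.10 in WT cells (limma adjusted p = 0.00109 and 0.00254). Dock2, a guanine nucleotide exchange factor for RAC in lymphocyte migration, fell, with a difference of -1.08 ± 0.14 in Tg and -1.06 ± 0.14 in WT cells at 6 h (adjusted p = 0.000511 and 0.000553). Its differences at 24 h were -0.30 and -0.43 (adjusted p = 0.174 and 0.0552).

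Because Gimap7 went its own way, the same measure was taken for it alone, a choice made after its values were seen. The 10 likest genes had r from 0.98 to 0.99 and were Wdr76, Tcf19, Dnmt1, Mrnip, Ubr7, Topbp1, Lig1, Rad51c, Rtel1 and Timeless. Several are known for DNA replication and repair: Lig1 is the ligase of replication, Dnmt1 the maintenance DNA methyltransferase, Topbp1, Rad51c, Rtel1 and Timeless act at replication forks or in repair. Dnmt1 read -0.53 ± 0.11 at 6 h and 1.03 ± 0.11 at 24 h against 0 h in Tg cells, and -0.52 and 1.12 in WT cells (adjusted p from 0.00022 to 0.00852). Lig1 was higher at 24 h by 1.66 ± 0.22 in Tg cells and by 1.86 ± 0.22 in WT cells (adjusted p = 0.000924 and 0.000407). Its 6 h differences were -0.58 and -0.64 (adjusted p = 0.0881 and 0.0585). Likeness over these 12 arrays says nothing of shared function or control.

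**Figure D4:**
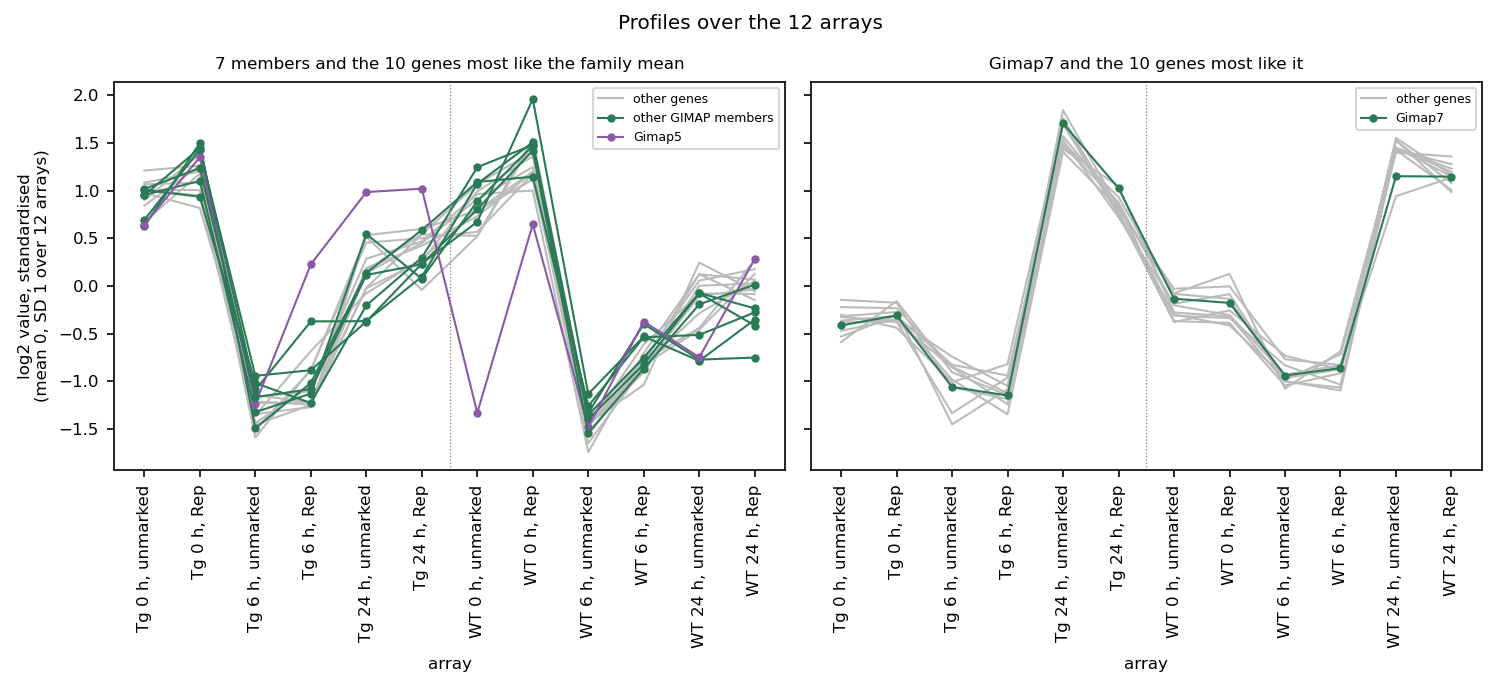
Log2 values standardised to mean 0 and SD 1 over the 12 arrays, with Tg arrays left of WT arrays. The left panel shows 7 members with the 10 genes most like the family mean and the right panel Gimap7 with its 10 likest genes, and Gimap7 peaks at 24 h, where the 6 other members with a called 6 h dip stay below the 0 h arrays of their genotype.

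The genes around the cluster were looked at in the order of the RefSeq table. The members run Gimap8, Gimap9, Gimap4, Gimap6, Gimap7, Gimap1, Gimap5 and Gimap3, so the riser Gimap7 lies between 2 genes that fell. The 10 protein-coding genes on either side were all measured. At 6 h 3 of these 20 neighbours were lower and 1 was higher in each genotype, and at 24 h 2 were lower and 2 were higher. Their medians were -0.09 and 0.06 in Tg cells and -0.06 and 0.001 in WT cells at 6 h and 24 h. Among all probe sets tested, 12.9% were lower and 12.5% higher in Tg cells at 6 h, and 13.9% and 12.6% in WT cells. At 24 h these shares were 11.8% and 12% in Tg cells and 13.8% and 12.9% in WT cells.

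Repin1, a zinc finger gene 2 places from Gimap8, was higher at 6 h and 24 h by 0.81 and 0.85 in Tg cells (SE 0.10) and by 0.73 and 1.01 in WT cells (adjusted p from 0.000158 to 0.000471). The genes next to the cluster did not pass at 6 h. Zfp775 read -0.04 in Tg cells and 0.01 in WT cells (adjusted p = 0.785 and 0.965). Tmem176b, on the side of Gimap3, read -0.49 ± 0.16 in Tg cells and -0.19 ± 0.16 in WT cells (adjusted p = 0.0513 and 0.452). Among neighbours named after their values were seen, Zfp467 fell, with a difference of -0.80 ± 0.10 in Tg cells and of -1.12 ± 0.10 in WT cells at 6 h (adjusted p = 0.000473 and 7.92e-05), and rose by 1.11 and 1.17 from 6 h to 24 h (adjusted p = 0.000563 and 0.000479).

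**Figure D5:**
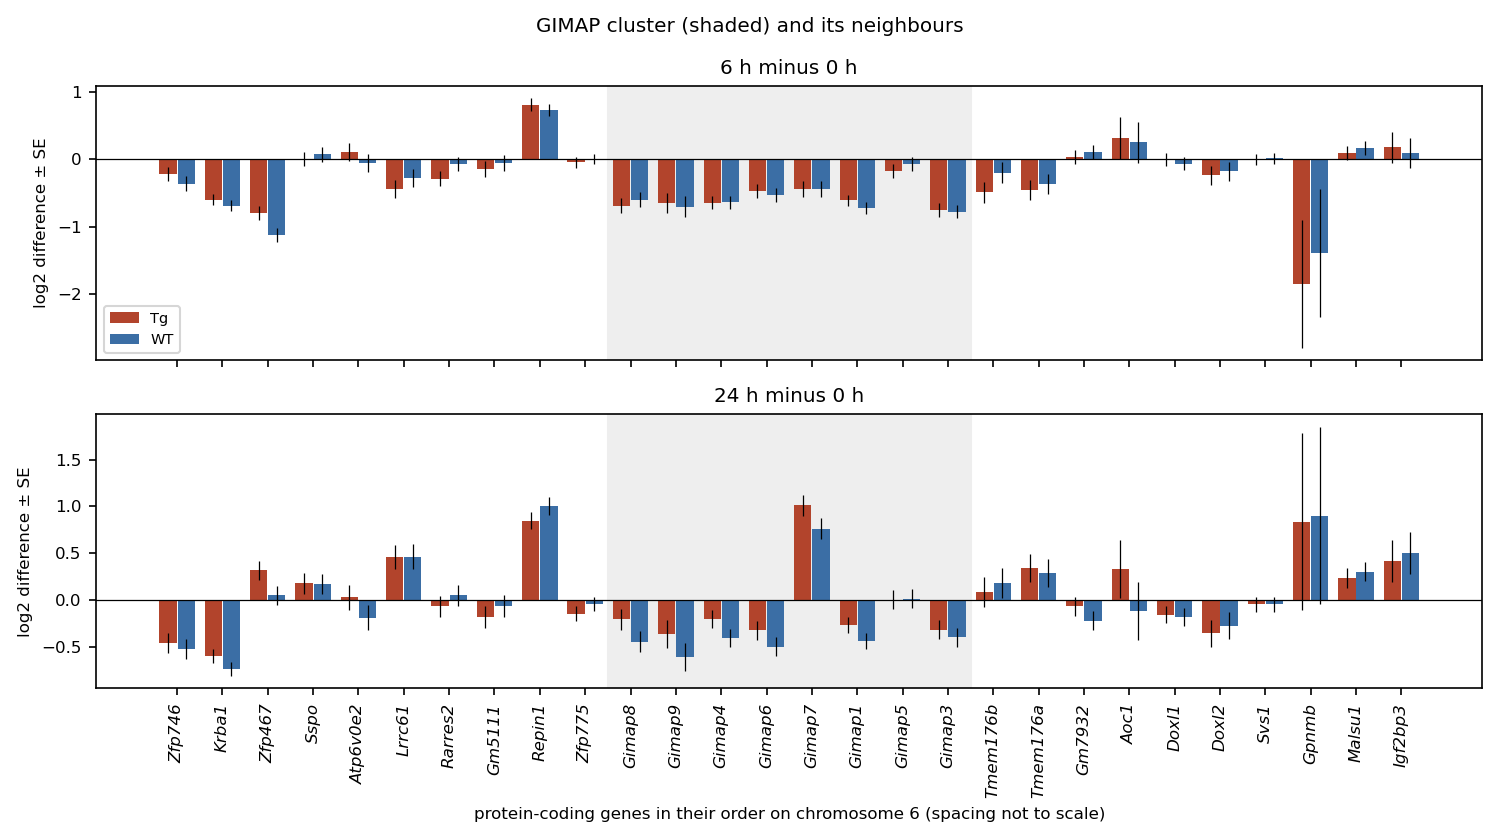
Log2 differences from 0 h with standard errors at 6 h (upper) and 24 h (lower) for the 8 GIMAP genes (shaded) and 10 protein-coding genes on each side, in gene order and not to scale, with Tg bars left of WT bars. The shaded block is below 0 throughout at 6 h except for Gimap5 near 0, and its neighbours go either way.

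Most measured genes of the resting T cell programme fell at 6 h, as 7 of 8 GIMAP genes did. The programme holds the factors that keep naive T cells quiescent and recirculating. Of the 22 measured, 15 were lower in Tg cells and 16 in WT cells at 6 h, with 0 higher in both and a median of -0.81 in each. Positive differences that did not pass were seen at 6 h for 4 genes in Tg and 5 in WT cells. At 24 h 16 were lower in Tg and 17 in WT cells, with 0 higher and medians of -0.52 and -0.59. Among all probe sets 12.9% were lower in Tg and 13.9% in WT cells at 6 h, and 11.8% and 13.8% at 24 h. From 6 h to 24 h 3 of the 22 rose and 2 fell in each genotype, with medians of -0.04 in Tg and -0.20 in WT cells. The GIMAP medians over this interval were 0.39 and 0.19. Among all probe sets 7.89% rose and 6.42% fell over it in Tg cells, and 7.49% and 5.86% in WT cells. Il7r, the receptor chain for the survival cytokine IL-7, fell, with a difference of -3.19 ± 0.35 at 6 h in Tg cells and of -2.93 in WT cells (limma adjusted p = 0.000205 and 0.00031). Klf2, a factor for lymphoid homing, fell, with differences of -0.59 at 6 h and -0.88 at 24 h in Tg cells and of -0.65 and -1.04 in WT cells (adjusted p from 0.0014 to 0.0231). Ccr7, like Il7r and Klf2 in the fixed set of markers, did not pass against 0 h. Its differences were 0.15 in Tg and 0.16 in WT cells at 6 h, and -0.21 and -0.27 at 24 h. Tob1, an inhibitor of T cell proliferation, fell, with a difference of -1.86 ± 0.12 in Tg and -2.04 ± 0.12 in WT cells at 24 h (adjusted p = 6.88e-05 and 2.82e-05). Of 12 genes of T cell receptor activation, 10 rose in Tg cells and 11 in WT cells at 6 h, and 8 in each at 24 h, with 0 lower. The shares of all probe sets that rose were 12.5% in Tg and 12.6% in WT cells at 6 h, and 12% and 12.9% at 24 h.

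The BCL2 family, which sets the threshold of apoptosis and has been tied to GIMAP proteins by binding studies, went both ways. Of 12 measured genes 3 rose and 3 fell at 6 h, and 4 rose and 1 fell at 24 h, the same counts in both genotypes. Among all probe sets 12.5% rose and 12.9% fell in Tg cells at 6 h, and 12% and 11.8% at 24 h. The WT shares were 12.6% and 13.9% at 6 h, and 12.9% and 13.8% at 24 h. Bcl2l1, the gene of BCL-XL, rose by 1.32 ± 0.18 in Tg and 1.73 ± 0.18 in WT cells at 24 h (adjusted p = 0.00103 and 0.00023). Bcl2 was higher by 0.98 in Tg and 0.91 in WT cells at 24 h (adjusted p = 0.03 and 0.0378). Bcl2l11, the gene of the killer protein BIM, read -0.49 and -0.51 at 24 h (adjusted p = 0.104 and 0.0829). Bmf, a gene of another such protein, fell, with a difference of -0.98 in Tg and -0.96 in WT cells (adjusted p = 0.00805 and 0.00769).

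Of the 9 autophagy genes around the ATG8 modifiers, 4 fell at 24 h in both genotypes and 0 rose. They were Map1lc3a, Map1lc3b, Sqstm1 and Gabarap, with Map1lc3a at -1.42 ± 0.14 in Tg and -1.22 ± 0.14 in WT cells (adjusted p = 0.00031 and 0.000374). Among all probe sets 11.8% fell in Tg and 13.8% in WT cells at 24 h. Gabarapl2, looked up as the partner of human GIMAP6, fell at 6 h, with a difference of -0.38 ± 0.07 in both genotypes (adjusted p = 0.00291 in Tg and 0.00317 in WT cells). Its differences at 24 h were -0.02 and -0.14 (adjusted p = 0.887 and 0.183).

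Septins and interferon-induced GTPases were counted as well, and no difference from the GIMAP genes was tested. Of 10 septins, 3 rose and 3 fell at 6 h in both genotypes, and at 24 h 1 rose in Tg cells and 3 in WT cells with 0 lower. Sept11 rose by 1.42 ± 0.17 in Tg and 1.58 ± 0.17 in WT cells at 24 h (adjusted p = 0.000634 and 0.000277). Of 8 measured GBP and IRG GTPases, which are induced by interferon, 2 rose in Tg and 1 in WT cells at 6 h, and again 2 and 1 at 24 h. Over all probe sets 12.5% rose in Tg and 12.6% in WT cells at 6 h, and 12% and 12.9% at 24 h. The shares that fell at 6 h were 12.9% and 13.9%. Gbp5 rose by 2.39 ± 0.39 in Tg and 2.20 ± 0.39 in WT cells at 24 h (adjusted p = 0.00251 and 0.00302). No gene of these lists passed in the comparison of Tg with WT cells at 24 h.

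Markers of other cell types also moved with time, and those given by name here were named after their values were seen. Of 7 measured B cell markers 4 fell at 6 h in both genotypes, namely Cd79a, Cd79b, Cd22 and Ebf1, with list medians of -1.37 in Tg and -1.19 in WT cells. From 6 h to 24 h 4 rose in Tg cells and 3 in WT cells, with medians of 1.13 and 0.79. Their summed level was 13.91 to 13.98, 12.46 to 12.87 and 13.93 to 13.96 in Tg cells at 0, 6 and 24 h, and 13.85 to 13.99, 12.24 to 13.03 and 13.33 to 13.75 in WT cells. B cells also express GIMAP genes, and the part of this dip in the GIMAP values was not tested. Among 9 CD4 T cell identity genes 3 fell and 2 rose in Tg cells at 6 h, and 4 fell and 2 rose in WT cells, with medians of -0.30 and -0.38. Cd4 itself fell, with a difference of -0.58 in Tg and -0.38 in WT cells at 6 h (adjusted p = 0.00435 and 0.0326). Of 7 dendritic cell markers 4 fell at 24 h in both genotypes, of 7 NK cell markers 3 did, and of 3 measured erythroid markers 3 fell in Tg and 1 in WT cells. Of 6 endothelial markers 1 fell, Pecam1, and 1 rose, Kdr, at 6 h in both. No neutrophil, monocyte or CD8 marker passed at 6 h, and at 24 h 1 of 2 CD8 markers rose, in Tg cells. All 9 neutrophil markers were negative against 0 h at both times in both genotypes, though none passed. Their medians were -0.75 in Tg and -0.42 in WT cells at 6 h, and -1.40 and -1.06 at 24 h. The standard errors of these differences were wide, from 1.07 to 1.55. For all probe sets, 12.5% rose and 12.9% fell in Tg cells at 6 h, and 12.6% and 13.9% in WT cells. At 24 h 12% rose and 11.8% fell in Tg cells, and 12.9% and 13.8% in WT cells. From 6 h to 24 h 7.89% rose in Tg and 7.49% in WT cells.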

How the data were processed

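Total RNA of 12 samples was measured on 1-colour arrays, and the deposited table gives 1 log2 value per probe set and sample. The steps by which the authors summarised and normalised these log2 values before deposit are not stated in any label or header used. The array medians spanned 0.1102 (7.39 to 7.50), over the limit of 0.1, so the values were quantile normalised with limma 3.58.1 in R 4.3.3. Of 28853 probe sets, 21789 had 1 gene symbol, 1621 several and 5443 none in GEO's platform annotation, and the 23410 with a symbol were tested. A limma model with 1 mean per group (6 residual degrees of freedom, default moderation) gave 12 comparisons, each with Benjamini-Hochberg adjustment and a threshold of 0.05. The number of arrays, 2 per group, limits the precision.

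The numbers behind the mark Rep pair samples: the deviations of same-marked arrays correlated in 15 of 15 pairs of groups (0.138 to 0.591). The 11 alternatives beside leaving out each array were the deposited values, centring on array medians, a filter on the dimmest 40% of probe sets, array weights, moderation with trend and robust options, a single probe set a gene, all probe sets, the compared groups only, the mark as a block, no WT arrays marked Rep, and a minimum of 1.5-fold. The members and the 16 gene lists were chosen with earlier results of these data known. Each list used 1 probe set per gene. Named were all members, up to 4 genes a list and direction by p at 24 h, a fixed set of markers, and the 10 genes most like the members. Summed levels are log2 of the sum of linear values. Motifs were searched in the RefSeq windows (GRCm38.p6), of which only the 250 bases before the start were used. The fit was tested on simulated data.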

Additional observations from a re-analysis of the deposited data

How the results depend on the processing

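The direction of every called difference was kept under every alternative run, and the counts of members called in the comparisons of Tg with WT cells and of their responses were 0 throughout. Of 2208 results under alternatives, 2076 kept their side of the threshold, 118 lost and 14 gained a call. Of the 2076, 77 that were called in neither setting changed sign. At 6 h against 0 h, 7 members were called in each genotype, and 0 in each with a minimum of 1.5-fold. Under median centring the calls of Gimap7 ended in both genotypes. Calls also ended in both genotypes in fits without 1 array and without the 3 WT arrays marked Rep. Without 1 array the differences in Tg cells ran from -0.56 to -0.38 for Gimap6, -0.46 to -0.40 for Gimap7 and -0.76 to -0.52 for Gimap9. In WT cells they ran from -0.46 to -0.41 for Gimap7 and -0.91 to -0.49 for Gimap9. At 24 h against 0 h, the Tg count of 2 was 1 under median centring, with all probe sets and with the compared groups only, 4 without the dimmest probe sets, with trended and robust moderation and with array weights, 5 with the replicate block, 0 with a minimum of 1.5-fold, and 1 to 4 without 1 array. The WT count of 7 was 4 with the compared groups only, 0 without the 3 WT arrays marked Rep, 0 with a minimum of 1.5-fold, and 2 to 7 without 1 array. At 24 h against 6 h, the Tg count of 5 was 3 under median centring, 2 with the compared groups only, 1 with a minimum of 1.5-fold, and 1 to 5 without 1 array. The WT count of 2 was 1 under median centring, with array weights, with the compared groups only, without the WT arrays marked Rep and with a minimum of 1.5-fold, and 1 to 2 without 1 array. The replicate block (pairing by the mark) changed no other call of a member than the 3 gained in Tg cells at 24 h. Leaving out samples or testing them alone leaves fewer degrees of freedom; otherwise the cause was not tested. A lone array left in a group is assumed to vary like the others.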
